A study of Mus musculus with 10 samples.

Results

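The circadian clock genes examined here are Clock, Arntl, Per1, Per2, Per3, Cry1, Cry2, Nr1d1, Nr1d2 and Dbp. They were taken by symbol from a table of 20813 genes, and all 10 were present. The clock runs as a loop of transcription and feedback. CLOCK pairs with BMAL1, the product of Arntl, and the pair binds E-box sequences and switches on the Per, Cry, Nr1d1, Nr1d2 and Dbp genes. PER and CRY proteins then return to the nucleus and inhibit the pair, the REV-ERB proteins encoded by Nr1d1 and Nr1d2 repress Arntl, and DBP activates genes that carry D-box sequences. SIRT1, an NAD-dependent protein deacetylase, is known to act on BMAL1 and PER2 in other tissues, and Nampt, the rate-limiting enzyme of NAD salvage, is itself driven by the clock. Clock transcripts cycle over the day in lymphoid and myeloid cells as in most tissues.

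The study sequenced RNA of 10 leukemic spleens, from mice with the strain label C57BL/6. Each recipient was irradiated at a dose short of lethal and received by vein a T-cell acute lymphoblastic leukemia (T-ALL, a cancer of immature T cells) with a conditional Sirt1 allele. In 5 mice, labelled Sirt1 deleted, tamoxifen was injected into the peritoneum at 3 mg per mouse in corn oil, and 5 mice, labelled Control, received corn oil only. Both groups therefore carried the same kind of transplanted leukemia, and only 1 group received tamoxifen, so the drug and the deletion cannot be told apart. The labels used here give no Cre driver, no number of independent leukemias, no age and no hour of collection. For genes that cycle, a shift in phase and a change in level cannot be told apart without that hour. Nothing in the labels says whether several spleens came from a single primary leukemia, and p-values then measure only the spread between these spleens. Each sample is named by its group and the number its title carries.

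The values are gene counts that the authors had normalized with DESeq, with column totals from 33.7 M to 34.5 M (M, mega). Sirt1 itself measured 1925, 1715, 1817, 1812 and 2097 normalized counts in labelled Sirt1-deleted replicates 7, 8, 10, 11 and 12. In control replicates 2, 3, 4, 5 and 6 it measured 1735, 1803, 1796, 1909 and 1809.6. The groups overlapped, and the log2 difference of Sirt1 was 0.05 (SE 0.06; limma adjusted p = 0.568; exact two-sided permutation p = 0.413). The gene-level value thus did not separate the groups. The labels do not say which exons the allele removes, and a count over the whole gene need not register the loss of a part; the treated group is called labelled Sirt1-deleted throughout. T lineage markers were expressed in every sample, with summed values of 14 genes between 246155 and 275142 in labelled Sirt1-deleted samples and from 239136 to 255435 in controls. Of these 14 genes, 3 were called higher and 3 lower, where a call is a limma adjusted p under 0.05, here and throughout. That share, 42.9%, is near the 36.1% of all tested genes that were called.

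Summed markers of some other cell types of the spleen moved with the groups. The 14 neutrophil markers summed to between 28974 and 99982 in labelled Sirt1-deleted samples and to between 9166 and 12658 in controls. Of these 14, 13 were called higher. The 16 macrophage and monocyte markers summed to between 7512 and 13516 against 3721 to 4172, and 13 of the 16 were called higher. Among all tested genes 16.8% were called higher. Stromal and endothelial markers summed to between 4962 and 5456 in labelled Sirt1-deleted samples and to between 5750 and 6645 in controls. Of the 7 tested, 2 were called lower. This share, 28.6%, is near the 36.1% of all tested genes that were called. In limma, 0 of 8 B cell markers and 0 of 9 erythroid markers were called, with 2 and 1 at an unadjusted p under 0.05 and 0 of either by the exact rank-sum test. In these bulk samples, fewer cells of a type and less RNA per cell cannot be told apart, and the part of these cells in the clock gene results was not tested.

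Promoter sequences are shown for the 3 clock genes that differed between the groups (Per1, Cry1 and Nr1d2) and for Per3, whose promoter carries D-boxes. RefSeq promoter windows (build GRCm38.p6, from 250 bases before to 50 after a transcription start) were found for 9 of the 10 genes. The stretch from 250 to 26 bases before the start is printed 5′ to 3′ on the strand of the gene, and capitals mark the motifs found. The Per1 stretch is chr11:69098699-69098923 (plus strand), the Cry1 stretch chr10:85185080-85185304 (minus strand), the Nr1d2 stretch chr14:18239132-18239356 (minus strand) and the Per3 stretch chr4:151044691-151044915 (minus strand).
Per1: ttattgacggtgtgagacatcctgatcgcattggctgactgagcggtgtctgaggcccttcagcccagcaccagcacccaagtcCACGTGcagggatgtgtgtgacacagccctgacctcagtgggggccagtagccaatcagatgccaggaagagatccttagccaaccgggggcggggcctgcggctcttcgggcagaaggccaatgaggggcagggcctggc
Cry1: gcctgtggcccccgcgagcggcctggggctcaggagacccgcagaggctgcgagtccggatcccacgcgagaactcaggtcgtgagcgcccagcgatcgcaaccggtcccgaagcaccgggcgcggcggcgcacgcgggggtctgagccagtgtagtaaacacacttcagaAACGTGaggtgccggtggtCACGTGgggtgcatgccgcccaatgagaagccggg
Nr1d2: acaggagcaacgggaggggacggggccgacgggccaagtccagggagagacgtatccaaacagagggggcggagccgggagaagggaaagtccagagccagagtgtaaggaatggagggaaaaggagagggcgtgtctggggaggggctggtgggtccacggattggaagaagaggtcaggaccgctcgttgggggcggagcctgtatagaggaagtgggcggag
Per3: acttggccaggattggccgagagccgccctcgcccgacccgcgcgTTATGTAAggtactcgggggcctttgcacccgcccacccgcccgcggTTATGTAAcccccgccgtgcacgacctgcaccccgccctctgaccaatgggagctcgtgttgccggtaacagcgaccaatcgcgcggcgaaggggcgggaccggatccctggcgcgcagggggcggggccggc

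Each motif was searched on both strands over the whole window. The E-box CACGTG, the site of CLOCK and BMAL1, was in windows of Per1 and Cry1. In Per1 it began 166 bases before a start (chr11:69098783-69098788) that lies inside the annotated span of the gene. A second Per1 window, with the stretch chr11:69099902-69100126, held none of the motifs searched. In Cry1 the E-box began 60 bases before the start (chr10:85185109-85185114). It was in 2 of the 9 clock genes with a window, in 8.09% of all 27025 genes with a window and in 7.15% of all 32851 windows. The related E′-box CACGTT, which does not overlap the E-box of Cry1, was in the windows of Cry1, Cry2 and Nr1d1. It was in 4.68% of all windows and in 5.44% of all genes with a window. The D-box TTATGTAA, the site of DBP and its relatives, occurred in Per3 at 205 and again at 158 bases before the start. It was in 0.938% of all windows and in 1.11% of all genes with a window. The element bound by REV-ERB and ROR proteins, searched as ANTAGGTCA and ANTGGGTCA, was in the Arntl window in the first form, 29 bases after a start. These forms were in 0.661% and 0.791% of all windows, and in 0.71% and 0.93% of all genes with a window. The window of Nr1d2 held none of the motifs searched, which besides these were the D-box form TTACGTAA (0.119% of all windows) and the cyclic AMP response element TGACGTCA (1.79%). A match describes letters only, and a window without one says nothing about the factor.

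Of the 10 clock genes, 3 were lower in the labelled Sirt1-deleted samples: Per1, Cry1 and Nr1d2. Per1 was lower by 33.3% of the control mean, and Cry1 and Nr1d2 each by 16.7%. Every clock gene passed the filter on low values (a mean of at least 10). Across all 15276 genes tested, 36.1% were called, 19.4% as lower and 16.8% as higher. The share of clock genes called, 30.0%, was thus near that background. The median log2 difference was -0.11 over the 10 clock genes and 0.00 over all tested genes, and the median size of a difference, whatever its sign, was 0.22 and 0.23. Among the clock genes 8 had values below and 2 above 0. With an exact rank-sum test in place of limma, Cry1 alone of the 10 was called.

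**Figure D1:**
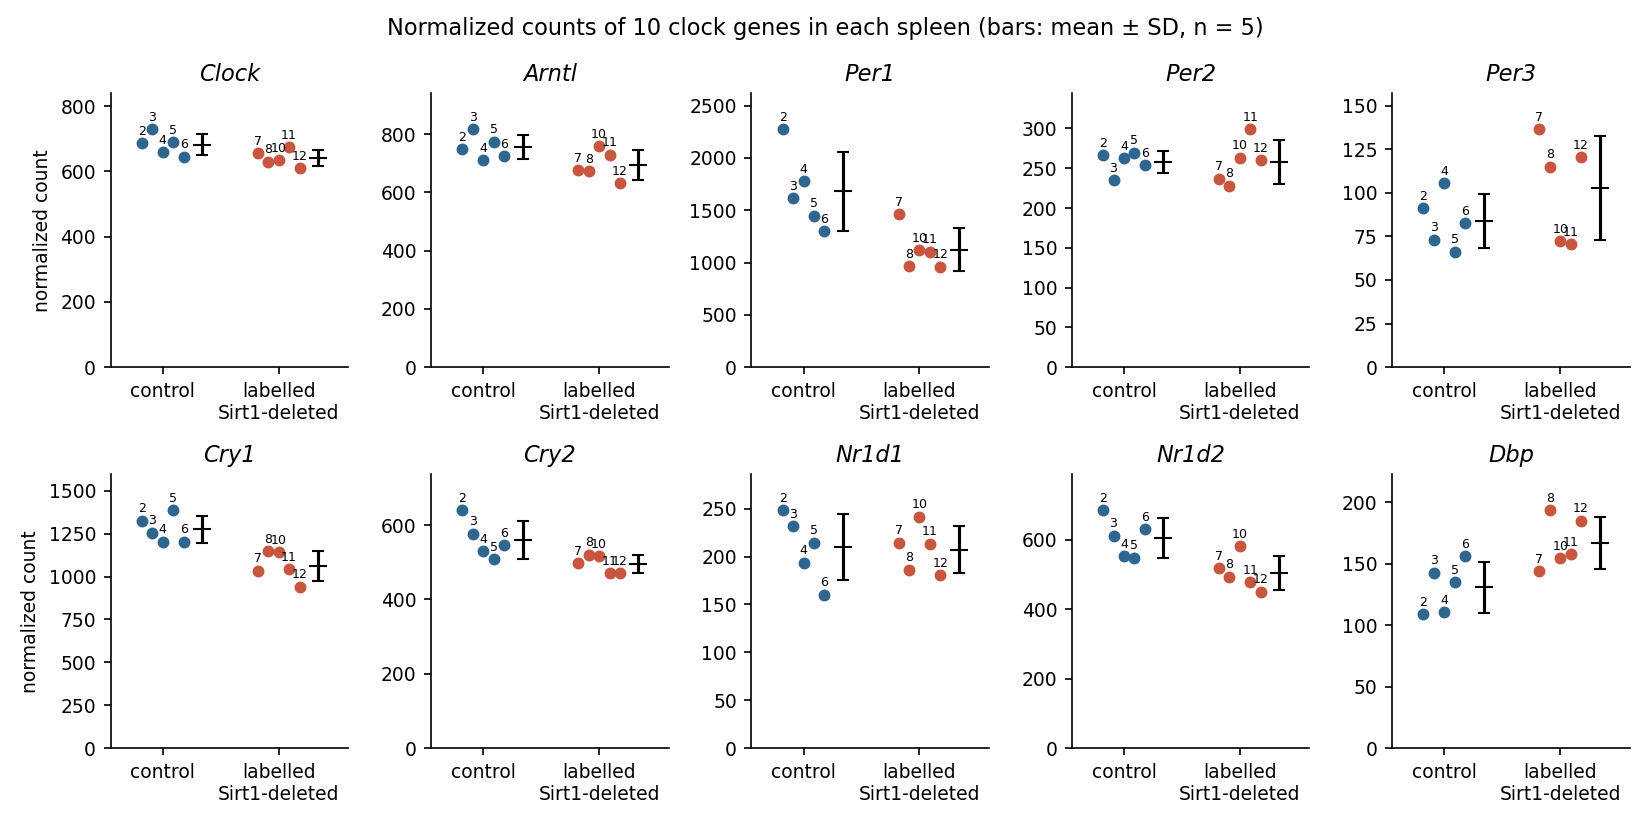
Normalized counts (y axis, linear from 0, own scale for each gene) of the 10 clock genes in 5 control and 5 labelled Sirt1-deleted spleens (x axis). Points are spleens with their replicate numbers, and bars are the mean and SD. The groups are fully separate for Cry1 only, from 941 to 1150 against 1202 to 1387.

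Per1 had the largest log2 difference of the 10. PER1 is a light- and hormone-responsive repressor of the clock, and its gene (ENSMUSG00000020893.17) lies at chr11:69095217-69109960 on the plus strand. It measured 1464, 963, 1120.4, 1103 and 960.4 normalized counts in labelled Sirt1-deleted replicates 7, 8, 10, 11 and 12, and 2274, 1616, 1776, 1447 and 1298 in control replicates 2 to 6. Labelled Sirt1-deleted replicate 7 lay above control replicates 5 and 6, and the other 4 lay below every control. The means were 1122 ± 205 and 1682 ± 376 (SD, n = 5 each), and the log2 difference was -0.57 (SE 0.15, 95% interval -0.89 to -0.26; limma adjusted p = 0.0102). Per1 thus fell further than 95.8% of tested genes. The call was lost under the exact rank-sum test (adjusted p = 0.0823) and held in each of the 10 fits without 1 sample.

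The other Period genes did not pass the threshold. PER2 is a core repressor that binds CRY proteins, and Per2 (ENSMUSG00000055866.9, chr1:91415982-91459324, minus strand) measured between 228 and 299 normalized counts in labelled Sirt1-deleted samples (median 260.4) and between 235 and 269.7 in controls (median 262). Its log2 difference was -0.00 with a 95% interval of -0.21 to 0.20 (limma adjusted p = 0.980), an interval that does not meet that of Per1. Its sign turned with the scaling: it was 0.05 after upper-quartile rescaling. Per3 (ENSMUSG00000028957.12, chr4:151003652-151044665, minus strand), a Period gene with a lesser part in the loop, measured 136, 115, 72.4, 70.5 and 120.5 in labelled Sirt1-deleted replicates 7, 8, 10, 11 and 12. It measured 91.4, 73.2, 105, 66.2 and 82.4 in control replicates 2 to 6. Replicates 7, 8 and 12 of the labelled Sirt1-deleted group were above every control, and replicates 10 and 11 were among the low values of both groups. The log2 difference of Per3 was 0.26 (SE 0.21, 95% interval -0.20 to 0.72; limma adjusted p = 0.351). It moved to 0.09 after quantile normalization, 0.42 with sample weights and 0.15 without labelled Sirt1-deleted replicate 7, and did not pass in any of these. The coefficient of variation of Per3 in the labelled Sirt1-deleted group was 29.0%, the highest of the 10 genes in either group. In those samples the summed neutrophil markers were 60145, 99982, 28974, 39751 and 44848 in the same order, lowest in replicates 10 and 11. Summed T lineage markers, at 275142, 270984, 246155, 249168 and 273392, were lowest in the same replicates. The macrophage and monocyte, B cell, erythroid, and stromal and endothelial sums did not have their lowest values in replicates 10 and 11 together. In controls, Per3 was highest in replicates 4 and 2, where the summed T lineage markers were lowest (247855 and 239136). Summed neutrophil markers of controls were highest in replicate 4 (12658) and lowest in replicate 2 (9166). Replicates 10 and 11 were singled out after the values were seen. The part of any of these cells in the spread of Per3 was not tested.

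Cryptochromes are the strongest repressors of CLOCK and BMAL1. Cry1 (ENSMUSG00000020038.10, chr10:85131700-85185064, minus strand) measured 1035, 1149.8, 1143, 1042 and 941 in labelled Sirt1-deleted replicates 7, 8, 10, 11 and 12, and 1326, 1256, 1202, 1387 and 1203 in control replicates 2 to 6. Every labelled Sirt1-deleted sample was below every control. Groups that did not overlap were found for 24.0% of all tested genes, and for 12.9% with the labelled Sirt1-deleted samples lower. The means of Cry1 were 1062 ± 86.7 and 1275 ± 80.5 (SD, n = 5 each), and the log2 difference was -0.26 (SE 0.07, 95% interval -0.42 to -0.11; limma adjusted p = 0.0113). This call held under each alternative that kept all samples and the threshold, and without each sample in turn, with adjusted p between 0.00701 and 0.0331. Cry2 (ENSMUSG00000068742.11, chr2:92403646-92434043, minus strand) measured between 470.0 and 520.2 (median 499) against 508 to 640.3 (median 546). Its log2 difference of -0.17 (95% interval -0.34 to -0.01) did not pass (limma adjusted p = 0.0945; -0.12 after upper-quartile rescaling), and 3 of its 5 labelled Sirt1-deleted values lay below the lowest control. The intervals of Cry1 and Cry2 overlap, and the difference between them was not tested.

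The REV-ERB nuclear receptors bind heme and repress Arntl. Nr1d2, which encodes REV-ERB beta (ENSMUSG00000021775.11, chr14:18204054-18239127, minus strand), measured 518, 494, 582, 479 and 450.0 in labelled Sirt1-deleted replicates 7, 8, 10, 11 and 12. It measured 685, 611, 552, 548 and 631 in control replicates 2 to 6. Replicate 10 lay above control replicates 4 and 5, and the other 4 lay below every control. The means were 504 ± 49.9 and 605 ± 57.2 (SD, n = 5 each). The log2 difference was -0.26 (SE 0.09, 95% interval -0.46 to -0.07; limma adjusted p = 0.0352). The call of Nr1d2 was the least steady of the 3. It was lost after upper-quartile rescaling (limma adjusted p = 0.0761), under the exact rank-sum test (adjusted p = 0.0823), and in 7 of the 10 fits without 1 sample, namely without labelled Sirt1-deleted replicate 7, 8, 11 or 12 or control replicate 2, 3 or 6 (limma adjusted p up to 0.0907). Its sign was negative throughout, with log2 differences between -0.32 and -0.20.

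Nr1d1, which encodes REV-ERB alpha (ENSMUSG00000020889.11, chr11:98767932-98775333, minus strand), measured between 180.5 and 242 (median 213) in labelled Sirt1-deleted samples and between 160.4 and 248 (median 214) in controls. Its log2 difference was -0.01 with a 95% interval of -0.30 to 0.28 (limma adjusted p = 0.969), and 0.05 after upper-quartile rescaling. Exons of Nr1d1 overlap those of Thra on the opposite strand. Thra, a thyroid hormone receptor gene, measured 932 ± 47.4 against 1113 ± 89.0 (n = 5 each, SD), lower by a log2 difference of -0.25 (limma adjusted p = 0.0120). The libraries were strand-specific, but whether the quantification used strand is not given in the sources used here, and without it reads of such a pair cannot be told apart. Exons of Arntl and Cry2 likewise overlap Gm45355 and D930015M05Rik on the opposite strand, which are not analysed here.

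Neither gene of the activator pair passed the threshold. Clock (ENSMUSG00000029238.11, chr5:76209868-76304792, minus strand) measured 641 ± 24.8 normalized counts in labelled Sirt1-deleted spleens against 682 ± 32.3 (SD, n = 5 each), with ranges of 610.5 to 675 and 645 to 729. Its log2 difference was -0.09 (95% interval -0.22 to 0.04; limma adjusted p = 0.275). Arntl (ENSMUSG00000055116.8, chr7:113207465-113314126, plus strand) measured 694 ± 50.2 against 756 ± 42.1 (SD, n = 5 each), with ranges of 633 to 759 and 711 to 817. Its log2 difference was -0.12 (95% interval -0.27 to 0.03; limma adjusted p = 0.181). For either gene 3 of the 5 labelled Sirt1-deleted samples lay below the lowest control, and the intervals allow a fall of up to 0.22 for Clock and 0.27 for Arntl. The differences shrank to -0.03 for Clock and -0.06 for Arntl after upper-quartile rescaling, and that of Clock to -0.05 after quantile normalization.

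Dbp, a PAR-domain bZIP factor that relays the E-box rhythm to D-box genes, had the highest positive difference of the 10, which did not pass. The gene (ENSMUSG00000059824.12, chr7:45705088-45710203, plus strand) measured 144, 194, 155, 158 and 185 in labelled Sirt1-deleted replicates 7, 8, 10, 11 and 12, and 109, 143, 111, 135 and 157 in control replicates 2 to 6. Labelled Sirt1-deleted replicates 8, 11 and 12 were above every control, replicate 11 by a narrow margin. The log2 difference of Dbp was 0.35 (SE 0.14, 95% interval 0.06 to 0.65; limma adjusted p = 0.0609). It passed after upper-quartile rescaling (log2 difference 0.41, limma adjusted p = 0.0387) and without control replicate 6 (0.42, limma adjusted p = 0.0394). Quantile normalization lowered it to 0.22 (limma adjusted p = 0.225), and the other 9 fits without 1 sample did not pass (limma adjusted p up to 0.141). Exons of Dbp overlap those of Sphk2, a sphingosine kinase gene, on the opposite strand. Sphk2 measured 1314 ± 95.6 against 1120.1 ± 43.6 (n = 5 each, SD), higher by a log2 difference of 0.23 (limma adjusted p = 0.0126). Its groups did not overlap, which held in either direction for 24.0% of all tested genes.

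**Figure D2:**
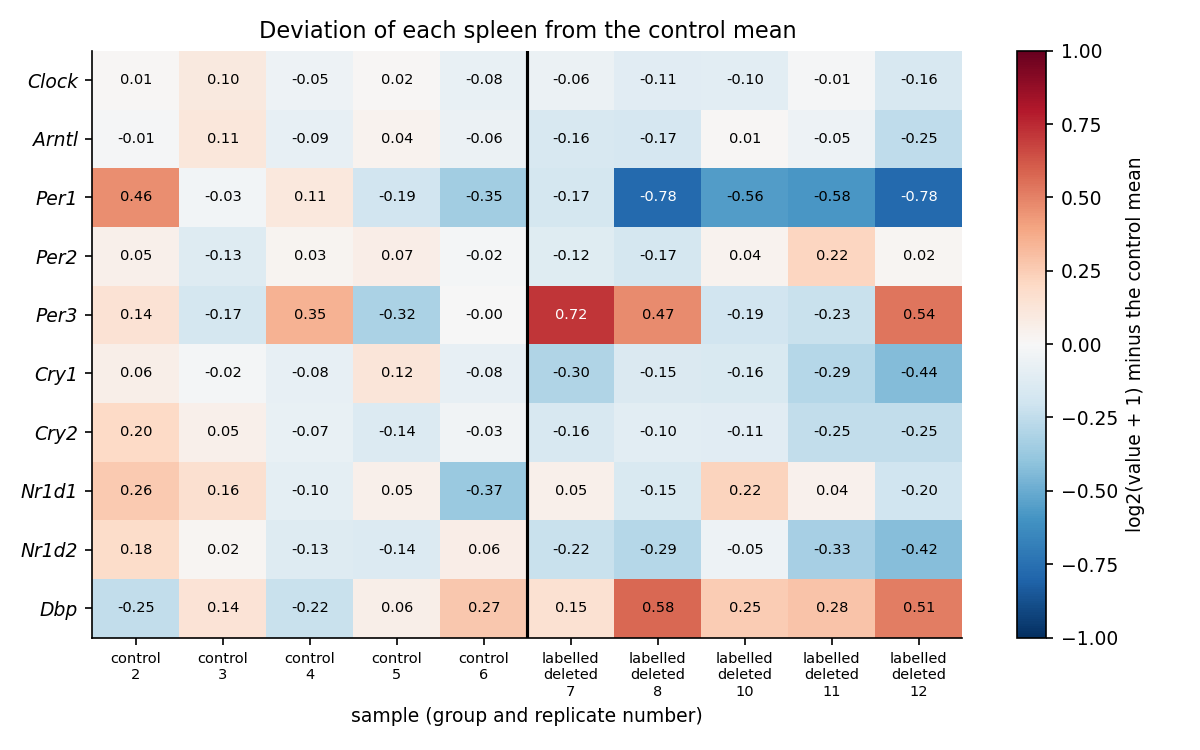
Deviation of log2(value + 1) of each clock gene (rows) in each spleen (columns) from the mean of the 5 controls, with red above and blue below. Per1 and Dbp have opposite colours in 4 of the 5 labelled Sirt1-deleted samples at a size over 0.2. Clock, Per1, Cry1, Cry2 and Nr1d2 are below the control mean in all 5.

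Within the groups, Per1 and Dbp ranked samples in nearly opposite order. This pair was chosen after its values were seen. Control replicate 2 had the highest Per1 value of its group and the lowest Dbp value, and control replicate 6 had the lowest Per1 and the highest Dbp. In the labelled Sirt1-deleted group, replicate 7 had the highest Per1 and the lowest Dbp, while replicates 8 and 12 had the lowest Per1 values and the highest Dbp values.

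**Figure D3:**
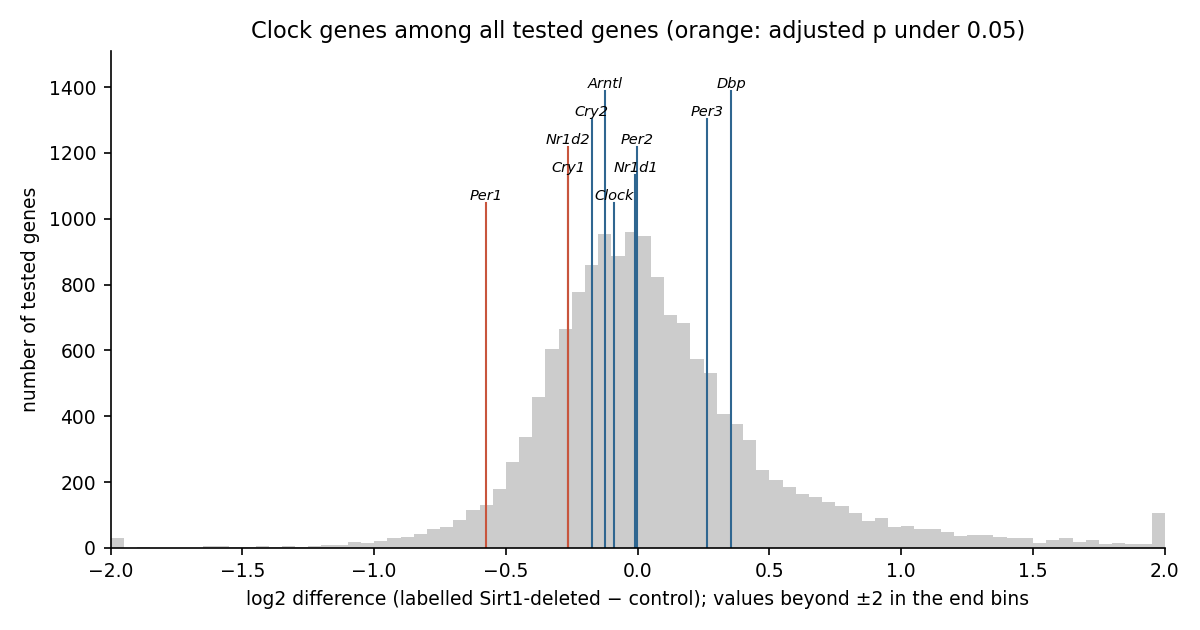
Number of tested genes (y axis) by log2 difference between labelled Sirt1-deleted and control samples (x axis), over 15276 genes, with the 10 clock genes drawn as lines, orange where the limma adjusted p was under 0.05. Per1 at -0.57 lies in the lower flank, and the other 9 genes lie between -0.26 and 0.35.

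Levels of different genes were compared per kilobase of the principal transcript in GENCODE M21, as normalized counts per kb. In controls the order was Cry1 (421 ± 26.6), Per1 (360.1 ± 80.6), Arntl (254 ± 14.1), Cry2 (141 ± 12.9), Nr1d2 (129.8 ± 12.3), Nr1d1 (77.1 ± 12.6), Dbp (71.2 ± 11.2), Clock (70.0 ± 3.31), Per2 (44.1 ± 2.38) and Per3 (14.0 ± 2.56; SD, n = 5 each). Cry1 and Per1 overlapped within their spread, as did Cry2 and Nr1d2, and Nr1d1, Dbp and Clock. In the labelled Sirt1-deleted samples the level of Dbp was 90.9 ± 11.6 per kb and that of Nr1d1 76.2 ± 9.05 (SD, n = 5 each), and these neighbours changed places. Several of these places rest on the length used. Dividing by the union of all exons instead put Nr1d2 before Arntl and Cry2 (112 ± 10.6, 100.4 ± 5.6 and 88.7 ± 8.13 per kb in controls; SD, n = 5 each). It also put Dbp (43.7 ± 6.89) after Clock (49.7 ± 2.35) and Per2 (44.0 ± 2.37) in controls. On that scale Dbp in the labelled Sirt1-deleted samples (55.8 ± 7.12) stayed below Nr1d1 (67.4 ± 8.01; SD, n = 5 each), so the exchange of those neighbours was not seen. Cry1 and Per1 were the highest and Per3 the lowest on both scales and in both groups.

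**Figure D4:**
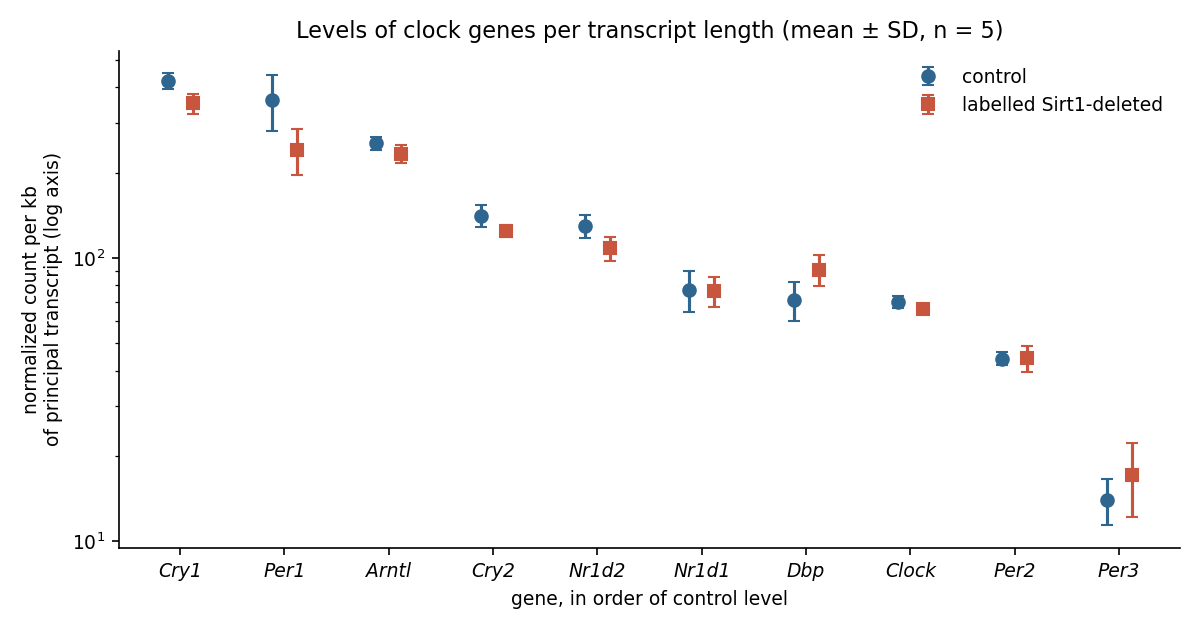
Normalized counts per kb of principal transcript (y axis, log scale) of the 10 clock genes in order of their control level (x axis), as mean and SD over 5 control (circles) and 5 labelled Sirt1-deleted (squares) samples. Levels run from 421 for Cry1 to 14.0 for Per3 in controls.

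The genes most like each of the 3 lower clock genes were ranked by Pearson r over the 10 samples after removal of the group means, among 10751 genes with a mean of at least 100. For Per1 they were Lynx1 (r = 0.93), Aagab (r = 0.92) and Inpp4b (r = 0.90). For Cry1 they were Myo1c (r = 0.97), Shprh (r = 0.96) and Ly75 (r = 0.95), and for Nr1d2 they were Ptch1 (r = 0.93), P3h1 (r = 0.92) and Nfxl1 (r = 0.92). No other clock gene was among these, and Per3, with a mean of 93.3, was too low to be ranked. The r values describe shared scatter within these 10 samples and carry no test.

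Of 27 further genes of the clock pathway, 24 were tested and 8 were called, 7 lower and 1 higher. That share, 33.3%, is close to the background of 36.1%. Fbxl21 is not analysed here, and Npas2 and Ppargc1a were below the minimum mean. The median log2 difference of the 24 was -0.11.

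Of 6 tested kinases and ubiquitin ligase subunits that act on PER and CRY proteins, 5 were called lower. Of all tested genes 19.4% were called lower, and 2996 of 11762 with a minimum mean of 50. The list and this grouping of it were chosen with earlier results known, and the difference between these shares was not tested. Outside this grouping Nfil3, Wee1 and Nampt were called, and other groups of the list had no calls, as given below. Among 4 kinases, Csnk1a1 (casein kinase 1 alpha) fell by 0.16 on the log2 scale (limma adjusted p = 0.0129), Csnk1e (casein kinase 1 epsilon) by 0.21 (limma adjusted p = 0.0175) and Gsk3b by 0.23 (limma adjusted p = 0.0116). For each of the 3, every labelled Sirt1-deleted sample was below every control, as for 12.9% of all tested genes. Csnk1d, at 7129 ± 344 against 7637 ± 414 normalized counts (SD, n = 5 each), did not pass (limma adjusted p = 0.139). Fbxw11 fell by 0.33 (limma adjusted p = 0.00788) and Btrc by 0.37 (limma adjusted p = 0.0167); their products, the beta-TrCP proteins, target PER proteins. After upper-quartile rescaling the calls of Csnk1a1 and Csnk1e were lost (limma adjusted p = 0.0544 and 0.0645), and after quantile normalization that of Csnk1e (limma adjusted p = 0.0603). Exons of Csnk1e and Btrc overlap predicted genes on the opposite strand. Under the exact rank-sum test Btrc and Fbxw11 were lost (adjusted p = 0.0512 for both).

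Among the transcription factors of these 24 further genes, only Nfil3 passed in limma. Nfil3 encodes the bZIP repressor that competes with DBP for D-boxes, and it fell from 184 ± 16.8 to 140.2 ± 17.6 (n = 5 each, SD; log2 difference in limma -0.39, SE 0.12, adjusted p = 0.0215). Its call was lost under the exact rank-sum test (adjusted p = 0.0512) and without labelled Sirt1-deleted replicate 12 or control replicate 2 or 4 (limma adjusted p up to 0.0511). The other PAR-bZIP genes had positive values that did not pass, 0.19 for Tef (limma adjusted p = 0.137) and 1.71 for Hlf (limma adjusted p = 0.0577), whose normalized counts were low at 25.4 ± 31.7 against 5.12 ± 2.72 (SD, n = 5 each). Labelled Sirt1-deleted replicate 12 alone measured 81.6 for Hlf, and the other 4 measured 6.06 to 16.4, with a mean of 11.3. Without replicate 12 Hlf was below the minimum mean and was not tested, and without replicate 11 both Tef (0.26) and Hlf (2.04) passed (limma adjusted p = 0.0352 and 0.0318). Rora, an activator of Arntl, had a log2 difference of 0.41 (332 ± 83.1 against 245 ± 27.4, SD, n = 5 each; limma adjusted p = 0.0586). Rora passed after upper-quartile rescaling (0.47), with sample weights (0.51) and without labelled Sirt1-deleted replicate 10 (0.53), with limma adjusted p of 0.0413, 0.0135 and 0.0104. In limma 0 of the 3 Ror genes and 0 of the 4 E-box repressors (Bhlhe40, Bhlhe41, Ciart and Cipc) were called, with 1 and 0 at an unadjusted p under 0.05 and 0 of either by the rank-sum test. The same held for the 4 corepressors and partners (Ncor1, Hdac3, Nono and Wdr5), with 0 called, 2 at an unadjusted p under 0.05 and 0 by the rank-sum test. Of these, Cipc passed without labelled Sirt1-deleted replicate 10 (log2 difference -0.20), Ncor1 without replicate 11 (0.26) and with sample weights (0.21), and Nono in 4 alternatives (-0.16 to -0.13).

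Of the clock-driven outputs, Wee1 and Nampt passed in opposite directions. Wee1, a kinase that holds cells before mitosis, fell from 2386 ± 89.0 to 1871 ± 253 (n = 5 each, SD; log2 difference in limma -0.36, SE 0.08, adjusted p = 0.00511), a call lost only under the exact rank-sum test (adjusted p = 0.0512). Nampt was higher at 2952 ± 326 against 2573 ± 128 (n = 5 each, SD; log2 difference in limma 0.19, SE 0.07, adjusted p = 0.0485). Its call was narrow: it was lost in 5 of 11 alternatives that kept all samples and in 9 of the 10 fits without 1 sample, all but that without labelled Sirt1-deleted replicate 7 (limma adjusted p up to 0.103). Replicate 11 alone measured 3510 against 2648 to 2880 in the rest of that group, and without it the difference was 0.13 (limma adjusted p = 0.0808). Usp2 did not pass (0.08, limma adjusted p = 0.632).

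Per1 is also a direct target of the glucocorticoid receptor, and 5 of 6 other glucocorticoid-induced genes were tested. Fkbp5, which encodes a chaperone of that receptor, fell from 29062 ± 3453 to 21739.9 ± 1792 (n = 5 each, SD; log2 difference in limma -0.42, SE 0.08, adjusted p = 0.00285). Every labelled Sirt1-deleted sample was below every control for Fkbp5, as for 12.9% of all tested genes. Tsc22d3, which encodes the leucine zipper protein GILZ, measured 1417 ± 433 against 1913 ± 364 (SD, n = 5 each; log2 difference -0.46; limma adjusted p = 0.0659), and it passed only without labelled Sirt1-deleted replicate 7. Sgk1, Dusp1 and Klf9 had log2 differences of 0.05, 0.00 and 0.04 that did not pass, and Zbtb16 was below the minimum mean. The 1 call among 5, or 20%, was a lower one. Of all tested genes 19.4% were called lower and 36.1% in either direction. A part of glucocorticoids in the level of Per1 was not tested.

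**Figure D5:**
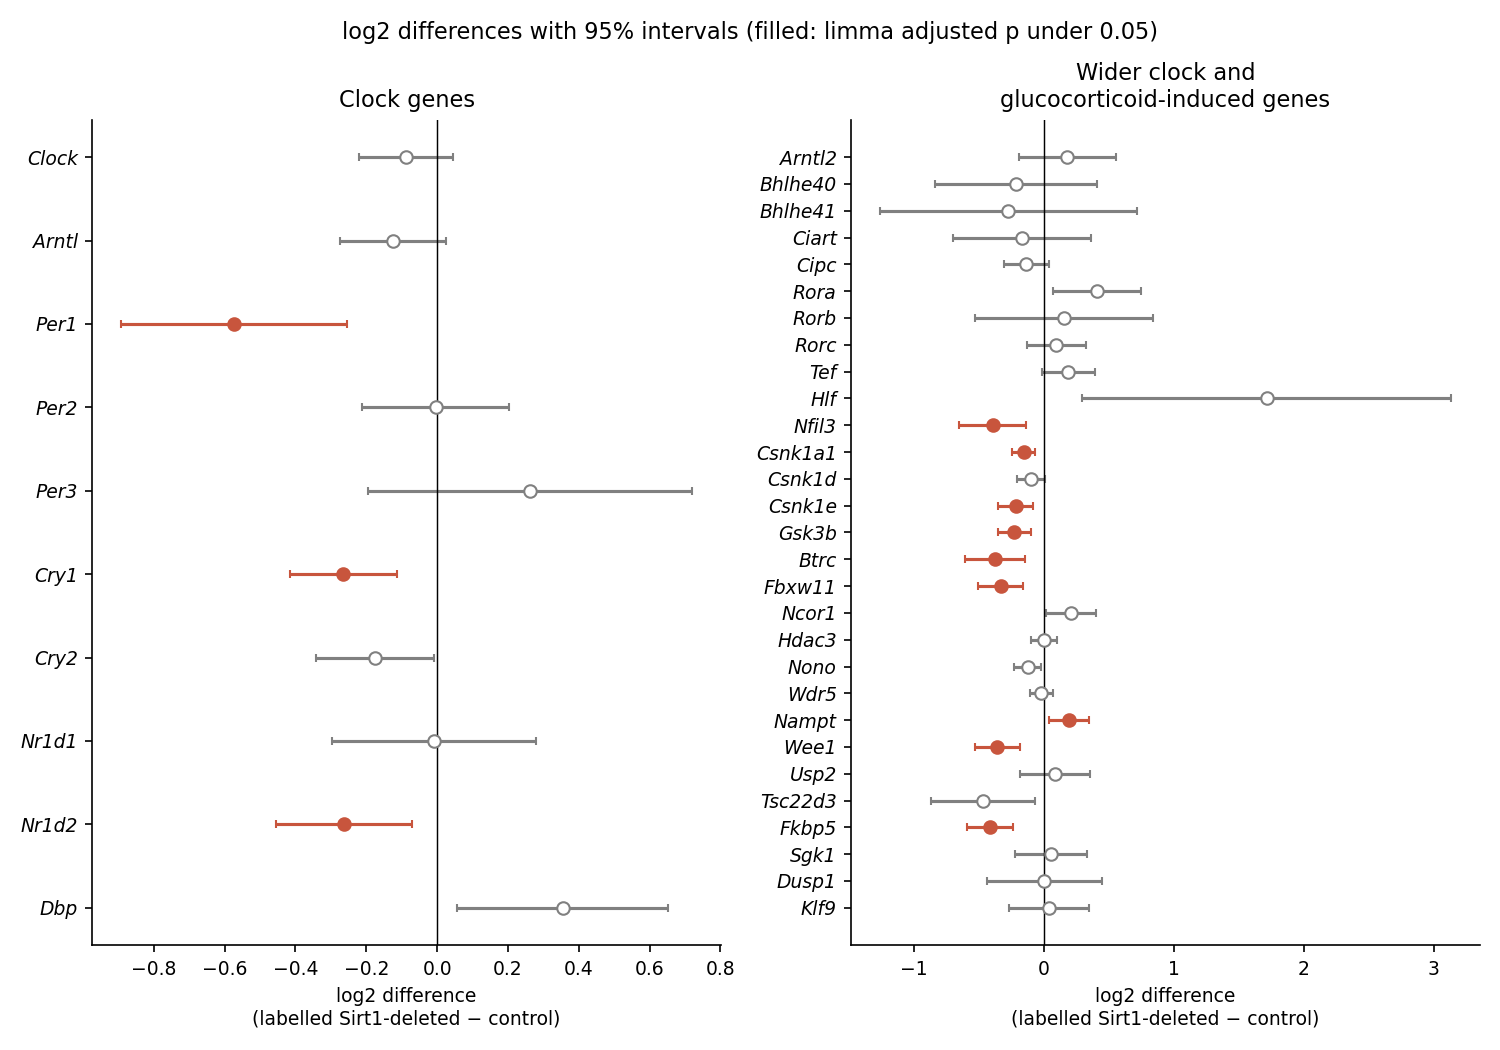
Log2 differences between labelled Sirt1-deleted and control samples (x axis) with 95% intervals from limma for the 10 clock genes (left) and for 29 tested genes of the wider clock pathway and the glucocorticoid list (right); filled points have an adjusted p under 0.05. Filled points lie below 0 except Nampt at 0.19, and Hlf has the widest interval.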

How the data were processed

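Gene expression was measured by RNA sequencing in 10 leukemic spleens, 5 per genotype label. The deposited values are a normalized signal, gene counts that the authors scaled by DESeq factors, per the file headers and name. The submitters' processing notes name kallisto 0.44.0, DESeq and mm10 without their roles. Neither the annotation nor a gene filter is given in the sources used here. Low values were only partly whole reads (68.0% to 74.0% lay within 0.1 of a multiple of the most frequent low value), so no count model was used. That value put depth at roughly 31.4 to 38.5 M reads (M, mega) per sample, and no counting intervals were derived.

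Log2(value + 1) was tested for 15276 genes with a mean of at least 10, using limma 3.58.1 in R 4.3.3 (group as the only term, intensity trend), with Benjamini-Hochberg adjustment over all tested genes and a threshold of 0.05. Log2 differences are on that scale, which understates changes of low genes. On simulated data of 15276 genes 84 of 100 genes with a 2-fold change were recovered, 73 of 100 with a 1.5-fold change, and 6 genes were called falsely. Only these genes were changed in the simulation and its samples were drawn independently, whereas 36.1% of the tested genes were called in the data. The rates therefore need not hold for the comparison made here. The members and lists were chosen with earlier results of these data known. Named are all 10 clock genes, the listed genes that passed, listed genes below the filter, and the 3 most alike genes of each clock gene that passed. A listed gene is not reported here, and its list was counted without it. Other listed genes are named for contrast after their values were seen. Cell type markers were summed per sample for T lineage, neutrophil, macrophage and monocyte, B cell, erythroid, and stromal and endothelial lists. Positions and lengths are from GENCODE M21 (GRCm38). Alternatives covered the pseudocount (0.1 and 5), the minimum mean (1, 50 or none), the scaling, the test, a threshold of 0.01 and omission of each sample.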

Additional observations from a re-analysis of the deposited data

Results flagged for a closer look

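In each group of 5 samples, for 20 genes (40 sets), the distance of the highest or lowest sample to the next one was taken as a share of the whole spread. It passed the critical share of 0.71 in 2 sets, where chance at 1 in 20 gives 2, and all 10 clock genes stayed below it. Nampt in labelled Sirt1-deleted replicate 11 was the highest of that group (share 0.731, values in the report). Fkbp5 in labelled Sirt1-deleted replicate 12 was the lowest, at 18625 normalized counts against 22001 to 22978 (share 0.775).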

How the results depend on the processing

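No paired analysis was possible because no sample number occurs in both groups. Rescaling to totals without the 10 highest genes was chosen after seeing the data. The exact rank-sum test called 1 of the 10 clock genes, 3 of the wider clock genes and 3659 of all tested genes. These were the genes whose groups did not overlap. At an adjusted p under 0.01, limma called 0, 2 and 2850. Of the clock genes 5 had an unadjusted limma p under 0.05 in the main comparison. Without 1 sample the clock genes called numbered 2 to 3, the wider clock genes 6 to 11, the glucocorticoid-induced genes 1 to 2 and all genes 4207 to 6259. Per1 and Cry1 were called in all 10 of these fits. Upper-quartile rescaling called 5434 genes, of which 58.2% were higher, against 46.4% with the deposited scaling. It called Per1, Cry1 and Dbp among the clock genes, in place of Per1, Cry1 and Nr1d2. Per2 changed sign after upper-quartile rescaling (0.0549) and after rescaling to totals without the 10 highest genes (0.00643), as did Nr1d1 (0.0505 and 0.00202). Without 1 sample, Per2 ranged from -0.0594 to 0.0380 and Nr1d1 from -0.101 to 0.0564. After quantile normalization Per2 was at -0.0555 and Nr1d1 at -0.106. The difference in Sirt1 stayed positive and did not pass, from 0.00482 to 0.0774 without 1 sample and up to 0.107 with another scaling. The depth behind these values is an estimate, and low genes such as Hlf and Bhlhe41 are the least precise.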
